A study of Mus musculus with 6 samples.

Results

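The genes described here are 40 genes of DNA replication and cell division, taken by symbol from a deposited table of 24318 gene symbols in cultured mouse astrocytes with and without ADGRB1. All 40 symbols were in the table, and 40 of 40 passed the filter on low counts. Poly-A RNA of cultured brain astrocytes, the glial cells that support neurons, was sequenced in 3 libraries of cells that lack ADGRB1 (KO) and in 3 libraries of wild-type cells (WT). ADGRB1 is an adhesion G protein-coupled receptor, and the only comparison of the design is KO against WT. The labels give the 2 genotypes and the astrocyte culture, which all libraries share. The strain, the age of the animals, the deleted allele, any Cre driver and whether the 3 libraries of a genotype came from separate cultures are not stated by the labels. The p-values below rest on differences among 6 libraries, and part of those may be technical.

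A dividing cell copies its DNA in S phase and separates the copies in mitosis. In G1, cyclin E and the E2F transcription factors switch on the replication genes, and Cdc6 and Cdt1 load the ring-shaped MCM helicase onto origins before copying starts. Genes of mitosis are switched on later, in G2, when cyclin A, cyclin B and Cdk1 drive entry into mitosis, and the anaphase-promoting complex then ends it by marking cyclins for degradation. Rodent astrocytes divide while the brain grows and in culture, and mature astrocytes rarely divide unless injured. The 40 genes were split by textbook role into 15 replication and G1/S genes and 25 mitosis genes, with Mki67 and Top2a, which peak late in the cycle, in the second group.

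The libraries held 19251607 to 20334442 counts in KO and 17460090 to 18897340 in WT, and the 40 genes took 0.049% to 0.0634% of the counts in KO and 0.0442% to 0.0744% in WT. Adgrb1 itself, measured in counts per 1000000 after TMM scaling (CPM), had 158, 140 and 117 CPM in the KO libraries, against 299, 363 and 317 CPM in the WT libraries (log2 fold change -1.24 ± 0.16 SE, edgeR adjusted p = 0.0684). It passed an adjusted p of 0.05 with DESeq2 (adjusted p = 1.82e-09) and limma voom (adjusted p = 0.0309). All 3 KO values lay below the WT values, and reads remained in KO. The 12 astrocyte markers were all detected and summed to 29300 to 34400 CPM in KO and 26600 to 30400 CPM in WT. Markers of other cells were detected too: 11 markers of oligodendrocyte precursors summed to 1530 to 2100 CPM in KO and 2530 to 3140 CPM in WT, and 13 markers of microglia and macrophages to 1580 to 2000 CPM in KO and 1850 to 2650 CPM in WT. Any of these cells can divide, and the cells that the reads of the 40 genes came from were not told apart.

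In the promoters that could be searched, the 2 groups differed in the share of genes that held some short sequences. Of the 40 genes, 34 matched a promoter of RefSeq (GRCm38.p6), a window from 250 bases before to 50 bases after the start of the gene. Mcm7, Gtse1, Prc1 and Psrc1 had alternative windows. Each gene was counted once, as holding a motif if any of its windows did, so the promoter counts below are counts of genes. Both strands were searched for the E2F motif (TTCCCGC or TTGGCGC or TTCGCGC or TTGCCGC), for the cell cycle homology region or CHR (TTTGAA or TTCGAA) and for the CCAAT box (CCAAT). In mammals E2F sites are known from G1/S genes, and CHR elements with CCAAT boxes from genes of G2 and mitosis. The E2F motif was in 8 of 13 replication and G1/S promoters (61.5%), in 3 of 21 mitosis promoters (14.3%) and in 10.9% of all 27025 genes of the promoter table. The CHR was in 16 of 21 mitosis promoters (76.2%), in 2 of 13 replication and G1/S promoters (15.4%) and in 21.7% of all genes. All 16 mitosis promoters with a CHR also held a CCAAT box, a pair found in 8.61% of all genes, and so did the 2 replication and G1/S promoters with a CHR. With or without a CHR, the CCAAT box was in 19 of 21 mitosis promoters (90.5%). It was in 8 of 13 replication and G1/S promoters (61.5%) and in 41.1% of all genes. With the 250 bases before the start alone, the CHR was in 11 of 21 mitosis promoters (52.4%) and in 19.6% of all genes. The E2F motif was then in 6 of 13 replication and G1/S promoters (46.2%) and in 9.01% of all genes. These matches describe letters in a window and were not tested as binding sites.

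The 250 bases before the start of 5 genes are printed as examples, as RefSeq gives them on GRCm38.p6, 5′ to 3′ on the strand of the gene. Cdk1 (chr10:69352913-69353162, minus strand), Top2a (chr11:99024190-99024439, minus strand) and Kif11 (chr19:37376132-37376381, plus strand) are mitosis genes that hold a CHR in this stretch. Mcm5 (chr8:75109259-75109508, plus strand) and Mcm6 (chr1:128359706-128359955, minus strand) are the replication genes with the most E2F motifs in this stretch. They do not stand for all of that group: Mcm2 and Mcm3 hold 0 E2F motifs there, and Mcm2 holds 1 CHR. Nor do the mitosis examples, picked for their CHR, stand for all mitosis genes. Birc5 and Nusap1 hold 0 E2F motifs, 0 CHR matches and 0 CCAAT boxes there, and Cdk1 holds E2F motifs as well. Capitals mark each E2F motif, CHR and CCAAT box on either strand (ATTGG is the CCAAT box, and TTCAAA the CHR, read on the other strand), and overlapping motifs run together.
Cdk1: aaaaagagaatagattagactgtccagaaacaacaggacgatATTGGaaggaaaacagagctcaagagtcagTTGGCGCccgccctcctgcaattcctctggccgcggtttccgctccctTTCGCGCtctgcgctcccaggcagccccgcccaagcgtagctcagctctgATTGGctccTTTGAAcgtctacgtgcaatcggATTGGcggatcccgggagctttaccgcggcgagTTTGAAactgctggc
Top2a: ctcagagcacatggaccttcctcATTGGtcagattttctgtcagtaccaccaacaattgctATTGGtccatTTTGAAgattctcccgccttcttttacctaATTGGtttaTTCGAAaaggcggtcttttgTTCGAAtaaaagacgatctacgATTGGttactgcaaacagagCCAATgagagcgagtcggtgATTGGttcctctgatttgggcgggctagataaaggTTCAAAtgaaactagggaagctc
Kif11: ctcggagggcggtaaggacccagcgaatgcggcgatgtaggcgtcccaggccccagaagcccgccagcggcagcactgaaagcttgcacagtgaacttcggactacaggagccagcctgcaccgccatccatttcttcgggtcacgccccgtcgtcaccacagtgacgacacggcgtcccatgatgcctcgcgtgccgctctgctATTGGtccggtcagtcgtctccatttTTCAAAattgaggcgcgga
Mcm5: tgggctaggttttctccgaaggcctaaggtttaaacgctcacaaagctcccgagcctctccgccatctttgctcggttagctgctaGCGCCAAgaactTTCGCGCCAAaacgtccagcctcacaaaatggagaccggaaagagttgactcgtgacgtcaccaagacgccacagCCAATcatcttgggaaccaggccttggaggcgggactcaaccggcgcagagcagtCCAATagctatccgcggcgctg
Mcm6: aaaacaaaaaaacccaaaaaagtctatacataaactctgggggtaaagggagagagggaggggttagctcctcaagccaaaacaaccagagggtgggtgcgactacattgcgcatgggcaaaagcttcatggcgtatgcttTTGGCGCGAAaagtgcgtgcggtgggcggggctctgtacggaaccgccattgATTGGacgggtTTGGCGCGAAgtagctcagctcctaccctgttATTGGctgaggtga
In this stretch Cdk1 holds 2 E2F motifs, 2 CHR matches and 3 CCAAT boxes, and its last CHR begins 15 bases before the start. Top2a holds 4 CHR matches, 6 CCAAT boxes and 0 E2F motifs, and Kif11 1 CHR and 1 CCAAT box. Mcm5 holds 3 E2F matches and Mcm6 holds 4, each with 2 CCAAT boxes and 0 CHR matches. Some of these E2F matches overlap on opposite strands, so each of the 2 genes has 2 separate E2F stretches.

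None of the 40 genes passed the test between KO and WT. With edgeR's quasi-likelihood test, 0 of 40 passed an adjusted p of 0.05, against 0 of the 14131 genes tested (0%), and the smallest adjusted p of the 40 was 0.826, of Birc5. At an unadjusted p under 0.05 there were again 0 of 40, where 6.16% of all genes tested stood. DESeq2, which gave no adjusted p for 9 of the 40, and limma voom also called 0 of the 40 at an adjusted p of 0.05, where they called 0.538% and 0.0283% of all genes, and 0 of the 40 (7.03% of all genes) and 3 of the 40 (18.9% of all genes) stood at an unadjusted p under 0.05. With the side of the GC trend described below as a batch term 0 of the 40 did (8.32% of all genes), and 1 did, Cenpf, with a block for the replicate number (9.94% of all genes). The median log2 fold change of the 40, KO over WT, was 0.11, beside 0.01 over all genes tested, and 28 of 40 lay above 0, beside 51.9% of all genes. This small median was -0.09 without WT replicate 1, 0 without KO replicate 2 and 0.29 without WT replicate 3, so its sign rests on single libraries. The CPM of KO and WT did not overlap for 2 of 40 genes, E2f1 and Mcm4, both higher in KO, where 11.2% of all genes did not overlap (5.28% higher in KO).

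**Figure D1:**
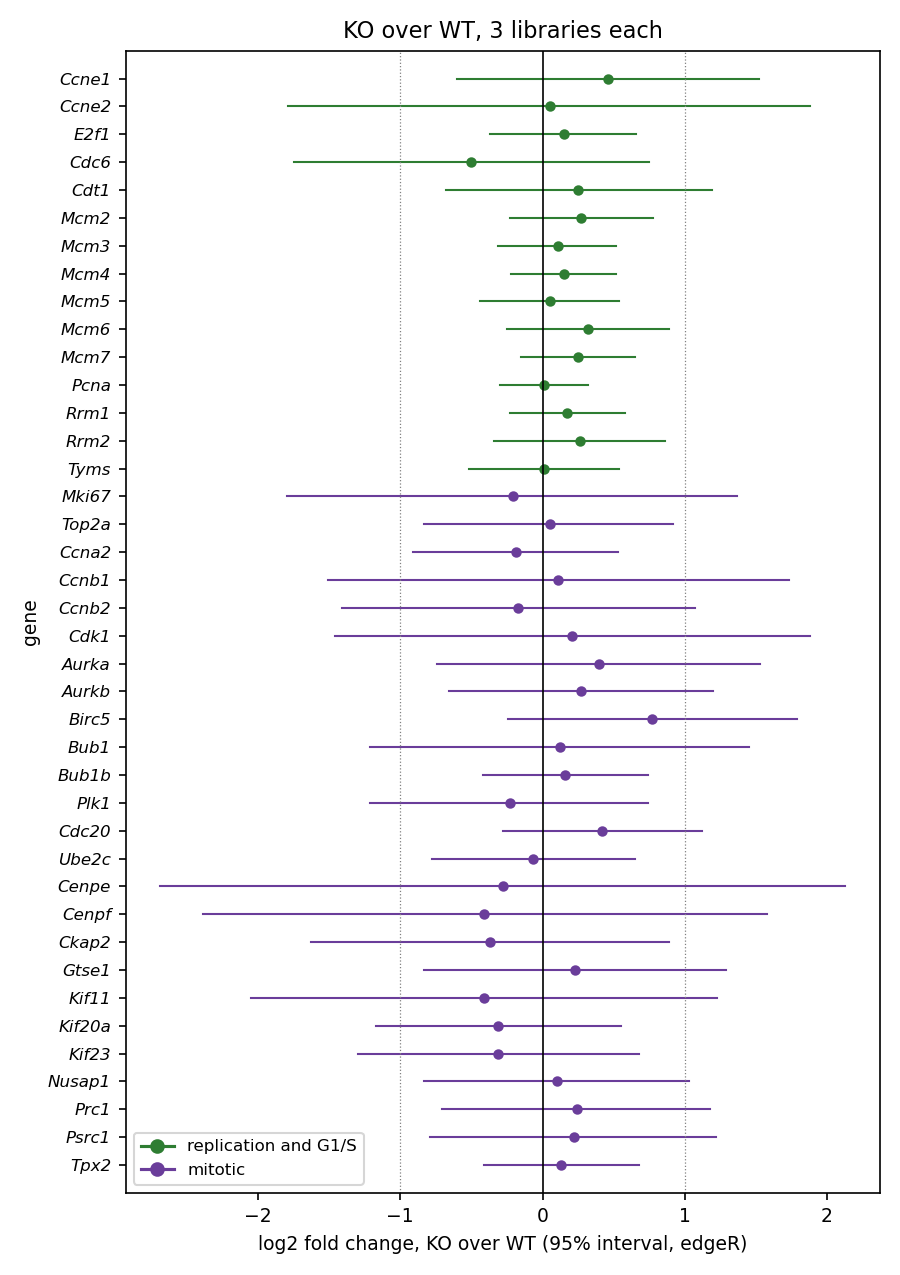
Log2 fold change of each of the 40 genes, KO over WT (x axis, 3 libraries each), with its 95% interval from edgeR, genes down the page by role. Every interval includes 0, dotted lines mark 2-fold in each direction, and the intervals of the replication and G1/S genes (green) are mostly narrower than those of the mitosis genes (purple).

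The precision of the comparison differed between the groups. The 95% interval of the log2 fold change lay within 2-fold in both directions for 11 of 15 replication and G1/S genes and for 5 of 25 mitosis genes. The median half-width of the interval was 0.51 for the first group and 1 for the second. The groups differed in level too, with a median of the genes' mean CPM of 20.2 and 5.68. The part of level in the precision and in the spread described below was not tested. The interval of Pcna ran from -0.30 to 0.32, and that of Cenpe from -2.69 to 2.13. A p that misses the threshold therefore does not show equal levels, least of all for the mitosis genes.

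Among the G1/S regulators, E2f1, a transcription factor that switches on replication genes, was at 10.6, 9.45 and 10.4 CPM in KO and at 9.40, 9.12 and 9.02 CPM in WT. All 3 KO values lay above the WT values, by a log2 fold change of 0.15 ± 0.23 (SE, edgeR adjusted p = 0.893). Ccne1, which encodes cyclin E1, the partner of Cdk2 at the entry into S phase, was at 4.4, 3.47 and 1.99 CPM in KO and at 2.08, 1.99 and 3.09 CPM in WT. Its groups overlapped, with KO replicate 1 highest (log2 fold change 0.46 ± 0.48, adjusted p = 0.848). Ccne2, for cyclin E2, lay between 0.427 and 1.15 CPM in KO and between 0.285 and 1.20 CPM in WT, and its groups overlapped.

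The licensing genes overlapped between KO and WT with the exception of Mcm4, and the highest library was mostly less than 2-fold above the lowest for the MCM genes. Mcm7, a subunit of the MCM helicase, was at 49.2, 52.3 and 37.7 CPM in KO and at 33.7, 43.1 and 40.2 CPM in WT. KO replicate 3 lay below 2 of the WT libraries, and the log2 fold change was 0.25 ± 0.18 (adjusted p = 0.833). Mcm2, another subunit, was at 18.9, 23.0 and 18 CPM in KO and at 13.7, 15 and 20.9 CPM in WT (log2 fold change 0.27 ± 0.23, adjusted p = 0.837). WT replicate 3 lay within the KO values. Mcm4, singled out after its values were seen, was at 28.6, 26.8 and 26.9 CPM in KO and at 22.9, 26.5 and 24.6 CPM in WT, so that the groups did not overlap by a narrow gap (log2 fold change 0.15 ± 0.17, adjusted p = 0.855). With total counts in place of TMM neither E2f1 nor Mcm4 stood apart. Mcm6 varied most among the subunits, at 26.1, 23.4 and 26.3 CPM in KO and at 14.1, 18.1 and 28.4 CPM in WT. Cdc6 and Cdt1 load the helicase. Cdc6 lay at 0.785 to 3.10 CPM in KO and 2.62 to 3.19 CPM in WT, and Cdt1 at 2.94 to 6.68 CPM in KO and 3.42 to 3.79 CPM in WT.

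Of the clamp and the genes of nucleotide supply, Pcna was among the steadiest of the 40. Pcna, the sliding clamp that holds DNA polymerase on its template, was at 104, 111 and 97.0 CPM in KO and at 97.0, 114 and 99.4 CPM in WT. The groups overlapped almost wholly, with a mean of 104 ± 7.10 CPM in KO and 103 ± 9.19 CPM in WT (SD, n = 3 each; log2 fold change 0.01 ± 0.14, edgeR adjusted p = 0.992). Rrm1, the large subunit of ribonucleotide reductase, was at 55.0, 64.3 and 53.8 CPM in KO and at 39, 55.5 and 58.7 CPM in WT. WT replicate 1 alone lay outside the KO range (log2 fold change 0.17 ± 0.18, adjusted p = 0.848). Rrm2, its small subunit, and Tyms, which makes thymidylate, lay at 18.4 to 27.3 and 10 to 10.3 CPM in KO and at 12.8 to 25.2 and 8.42 to 11.1 CPM in WT.

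Of the 15 replication and G1/S genes, 14 had a log2 fold change above 0, with a median of 0.15 and a range of -0.50 to 0.46. With total counts, where the median of all genes tested was -0.06, 10 of the 15 lay above 0. With the side of the GC trend described below as a batch term 11 did, and with each library left out 11 to 13 did.

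The mitosis genes spread widely within each genotype, and their median log2 fold change was 0.10. That median lay between -0.24 without WT replicate 1 and 0.39 without WT replicate 3, and it was below 0 also without KO replicate 2 (-0.07) and without KO replicate 3 (-0.15). Mki67, which encodes the proliferation antigen Ki-67 (chromosome 7, 135689784 to 135716361 on GRCm38, minus strand), was at 8.80, 17.1 and 31.4 CPM in KO and at 9.57, 13.1 and 43.8 CPM in WT. Replicate 1 was lowest and replicate 3 highest in both genotypes, and the log2 fold change was -0.21 ± 0.67 (edgeR adjusted p = 0.949). It was 0.76 without WT replicate 3. Top2a, topoisomerase II alpha, which untangles sister chromatids, was at 20.1, 41.9 and 46.7 CPM in KO and at 25.6, 26.8 and 52.9 CPM in WT (log2 fold change 0.05 ± 0.38, adjusted p = 0.985). KO replicate 1 was lowest of all and WT replicate 3 highest.

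**Figure D2:**
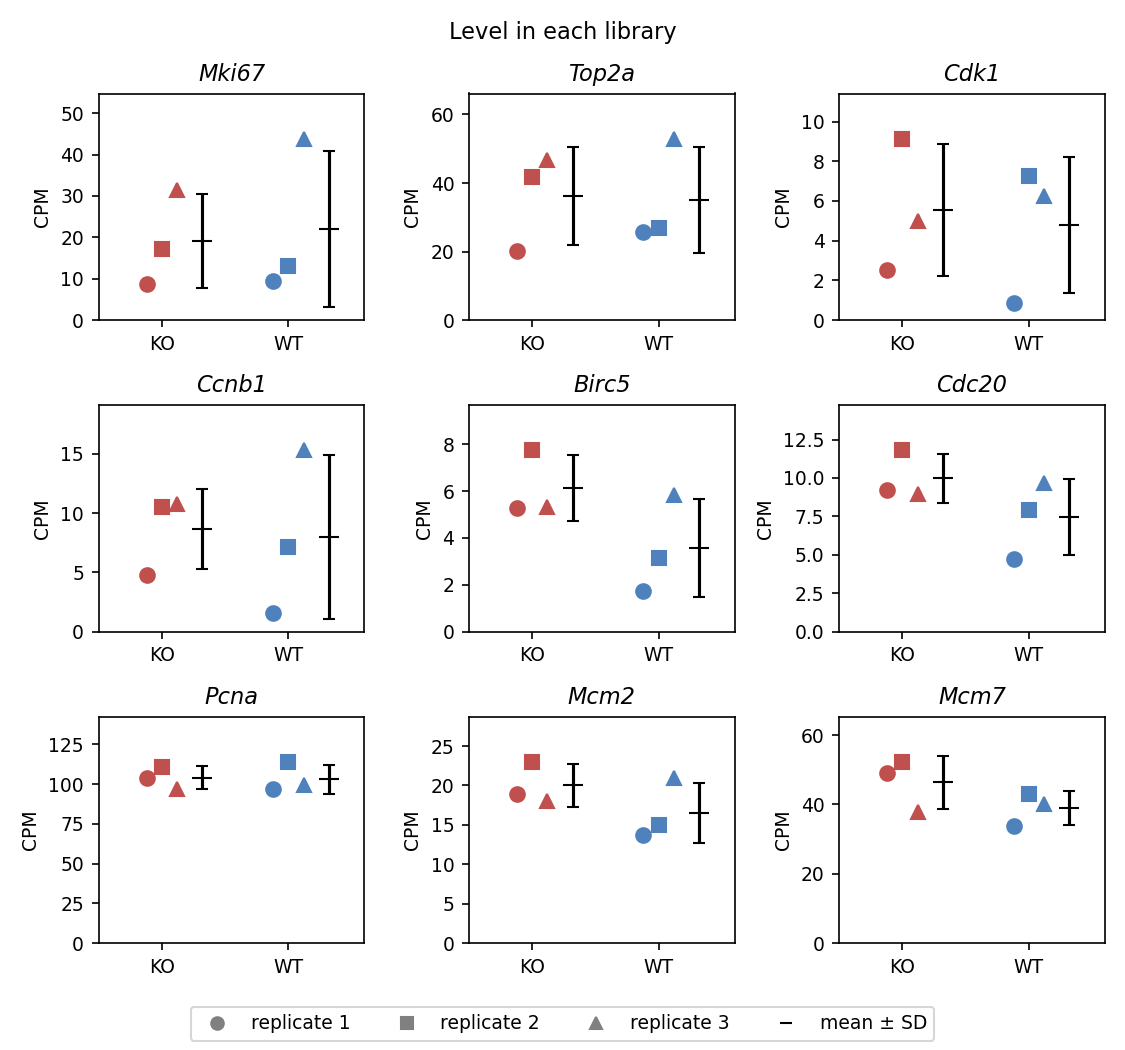
CPM of 9 of the genes in each library (points, marker by replicate number, not known to pair KO with WT), KO left of WT, with the mean and SD over 3 libraries to the right of each group and y axes from 0. Mki67 reached 31.4 CPM in KO and 43.8 CPM in WT, whereas Pcna stayed between 97.0 and 114 CPM throughout.

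Cdk1, Ccnb1 and Ccna2 were also low in replicate 1 of both genotypes. Cdk1, the kinase that drives mitosis (chromosome 10, 69335146 to 69352938), was at 2.51, 9.13 and 4.99 CPM in KO and at 0.875, 7.24 and 6.23 CPM in WT. These are 48, 171 and 100 counts in KO and 16, 127 and 125 counts in WT, so the spread within each genotype is larger than counting error, and the log2 fold change was 0.21 ± 0.73 (edgeR adjusted p = 0.956). Its partner Ccnb1, cyclin B1, was at 4.76, 10.5 and 10.8 CPM in KO and at 1.59, 7.12 and 15.3 CPM in WT (0.11 ± 0.70, adjusted p = 0.979). Ccna2, cyclin A2, was at 7.70, 15.5 and 15.5 CPM in KO and at 11.0, 13.7 and 19.4 CPM in WT (-0.19 ± 0.32, adjusted p = 0.903). Ccnb2, cyclin B2, lay at 2.04 to 2.99 CPM in KO and 1.20 to 4.90 CPM in WT.

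Among kinases, checkpoint and passenger genes, Birc5 had the largest log2 fold change of the 40. It encodes survivin, a subunit of the chromosomal passenger complex (chromosome 11, 117849251 to 117855743, plus strand), and was at 5.29, 7.74 and 5.34 CPM in KO and at 1.75, 3.13 and 5.83 CPM in WT. WT replicate 3 lay above 2 of the KO libraries, and the log2 fold change of 0.77 ± 0.46 did not pass (edgeR adjusted p = 0.826). Bub1b, the spindle checkpoint kinase BubR1, was at 9.22, 14.1 and 11.1 CPM in KO and at 8.75, 9.97 and 12.1 CPM in WT (0.16 ± 0.26, adjusted p = 0.895). Aurkb, the kinase of the passenger complex, lay at 4.24 to 9.51 CPM in KO and 3.33 to 5.98 CPM in WT, and Plk1, a kinase of mitotic entry and spindle assembly, at 3.89 to 5.39 CPM in KO and 2.46 to 7.52 CPM in WT. Aurka, a kinase of spindle poles, lay at 2.88 to 5.18 CPM in KO and 1.77 to 4.83 CPM in WT. Bub1, a checkpoint kinase of the kinetochore, lay at 2.04 to 6.48 CPM in KO and 1.75 to 6.73 CPM in WT.

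Cdc20, the activator of the anaphase-promoting complex, was at 9.22, 11.8 and 8.93 CPM in KO and at 4.76, 7.92 and 9.67 CPM in WT (log2 fold change 0.42 ± 0.31, edgeR adjusted p = 0.833). WT replicate 3 lay within the KO values. Ube2c, the ubiquitin-conjugating enzyme of that complex, lay at 4.76 to 6.78 CPM in KO and 4.59 to 7.37 CPM in WT.

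The kinesins, kinetochore and spindle genes include Cenpe, the gene of the widest spread. Tpx2, which activates Aurora A on the spindle, was at 15.6, 21.6 and 23.4 CPM in KO and at 15.5, 16.1 and 23.7 CPM in WT (log2 fold change 0.13 ± 0.24, edgeR adjusted p = 0.910). Kif20a, a kinesin of the central spindle, was at 4.66, 5.87 and 3.64 CPM in KO and at 4.97, 3.99 and 8.57 CPM in WT (-0.31 ± 0.39, adjusted p = 0.868), and WT replicate 3 alone stood apart. Kif11, Cenpe and Cenpf were singled out after their values were seen. Kif11, the kinesin that separates spindle poles, was at 2.15, 10.4 and 18.2 CPM in KO and at 11.8, 7.75 and 21.4 CPM in WT. Cenpe, a kinetochore kinesin, was at 0.157, 4.65 and 6.98 CPM in KO and at 3.61, 1.82 and 8.82 CPM in WT. In KO replicate 1 it held 3 counts. Cenpf, a large kinetochore protein, was at 2.46, 2.62 and 16.4 CPM in KO and at 5.58, 5.13 and 17.7 CPM in WT (-0.41 ± 0.84, adjusted p = 0.917). Replicate 3 of each genotype was highest for these 3 genes. Of the genes whose log2 fold change is given, Cenpf moved most with the libraries kept. Its log2 fold change was -1.90 without KO replicate 3 (edgeR adjusted p = 0.146) and 0.42 without WT replicate 3. The other spindle genes, Kif23, Nusap1, Prc1, Ckap2, Psrc1 and Gtse1, overlapped between the genotypes, at 1.94 to 16.4 CPM in KO and 1.80 to 17.7 CPM in WT.

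**Figure D3:**
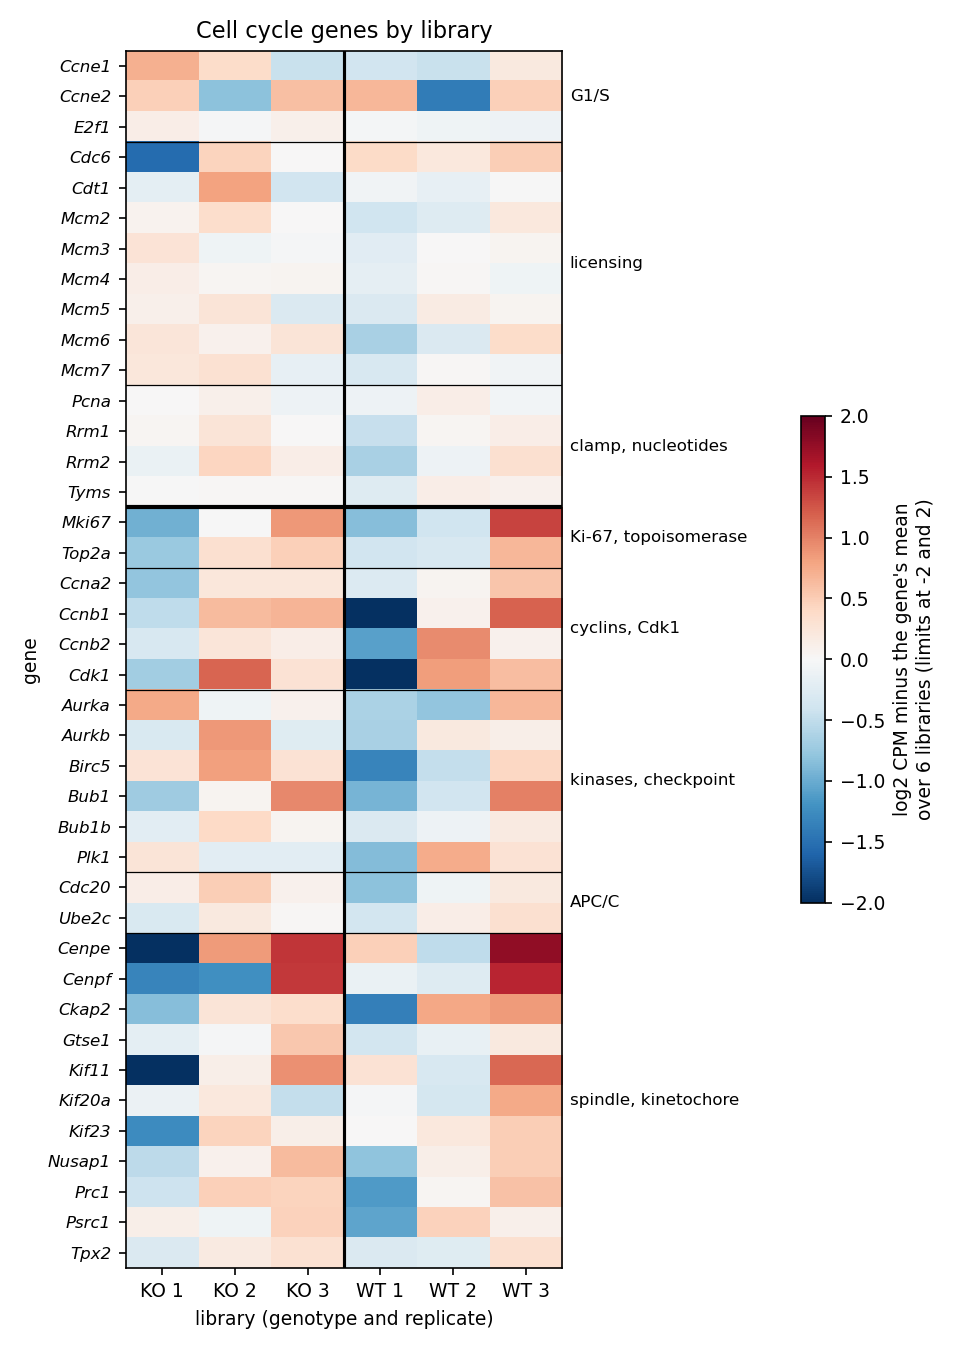
Log2 CPM of each of the 40 genes (rows, by role) in each library (columns, KO left of WT), minus the gene's mean over the 6 libraries, with colours limited at -2 and 2 and a thick line between replication and G1/S genes (above) and mitosis genes (below). Mitosis genes are mostly low in KO replicate 1 and WT replicate 1 and high in WT replicate 3, whereas replication genes show pale colours in most libraries.

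The largest pattern in the 40 genes was thus between libraries and not between genotypes. The median SD of log2 CPM over the 3 libraries of a genotype was 0.57 in KO and 0.76 in WT for the mitosis genes. It was 0.30 in KO and 0.28 in WT for the 6686 tested genes in the same range of mean CPM (2.45 to 35.7). For the replication and G1/S genes it was 0.19 in KO and 0.21 in WT, below the 0.28 and 0.26 of the 11604 tested genes in their range. The highest library was more than 2-fold above the lowest for 21 of 25 mitosis genes (median ratio 3.06) and for 6 of 15 replication and G1/S genes (median ratio 1.65). The share of all genes tested above 2-fold is not given, so these counts are a description only.

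The same libraries were high or low for most mitosis genes. KO replicate 1 was the lowest KO library for 20 of 25 (80.0%), where it was lowest for 34.2% of all genes tested, and WT replicate 1 was the lowest WT library for 20 of 25, where it was lowest for 32.6% of all genes. WT replicate 3 was the highest WT library for 20 of 25, beside 32.3% of all genes, and the highest KO library was KO replicate 3 for 12 and KO replicate 2 for 11. The mean of the 25 genes' log2 CPM, set against each gene's mean over all libraries, was -0.58, 0.25 and 0.38 in KO replicates 1 to 3 and -0.67, 0.00 and 0.62 in WT replicates 1 to 3. Both genotypes held low and high libraries. For the 15 replication and G1/S genes these means were 0.04, 0.17 and -0.02 in KO and -0.20, -0.12 and 0.13 in WT. Part of the order in WT was thus shared by these genes. WT replicate 1 was their lowest WT library for 10 of 15 (66.7%), and WT replicate 3 their highest WT library for 8 of 15 (53.3%). KO replicate 1 was their lowest KO library for 3 of 15 (20%). Since these are bulk libraries, fewer dividing cells and less of these RNAs per cell cannot be told apart.

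Several properties of the libraries moved with this pattern in part, and their part in it was not tested. GC-rich genes were relatively high in KO replicates 1 and 2 and in WT replicate 2 (Spearman correlation over 14040 genes with GC content 0.388, 0.355 and 0.0564) and relatively low in KO replicate 3 and WT replicates 1 and 3 (-0.394, -0.160 and -0.334). Exonic length ran the other way. Its correlation was -0.337, -0.243 and -0.204 in KO replicates 1 and 2 and WT replicate 2. It was 0.229, 0.262 and 0.259 in KO replicate 3 and WT replicates 1 and 3. Removing the trend with GC content and exonic length left the means of the mitosis genes at -0.47, 0.29 and 0.30 in KO and at -0.65, -0.02 and 0.55 in WT. Within the libraries of the first side the difference KO minus WT in mean log2 CPM of the mitosis genes was -0.17, and within the second 0.41, each with 1 library in a genotype. Markers of endothelial cells and pericytes, a list of 10 genes that were all tested, summed to 33.3, 229 and 452 CPM in KO and to 16.3, 96.3 and 66.1 CPM in WT. Vtn and Cldn5 made up most of that, with Vtn at 20.6, 182 and 368 CPM in KO and 3.33, 72.8 and 29.0 CPM in WT, and Tek held 0 counts in WT replicates 1 and 2. Markers of radial glia and neural progenitors, 10 genes, summed to 1330, 1570 and 2410 CPM in KO and to 1060, 1060 and 1310 CPM in WT. Their mean deviation was 0.03, 0.16 and 0.57 in KO and -0.60, -0.30 and 0.14 in WT, the order of the mitosis genes within each genotype. The endothelial and pericyte list also had this order by mean deviation, at -0.80, 0.34 and 0.87 in KO and -1.16, -0.01 and 0.76 in WT. Precursor markers did not have it in KO or WT. Their mean deviation was -0.27, -0.64 and -0.09 in KO and 0.40, 0.12 and 0.48 in WT. Their sum was 1940, 1530 and 2100 CPM in KO and 2920, 2530 and 3140 CPM in WT. Microglia markers did not have it in KO, with mean deviations of 0.03, -0.16 and -0.36 and sums of 2000, 1850 and 1580 CPM. In WT their mean deviation was -0.15, 0.33 and 0.31 and their sum 1850, 2640 and 2650 CPM.

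**Figure D4:**
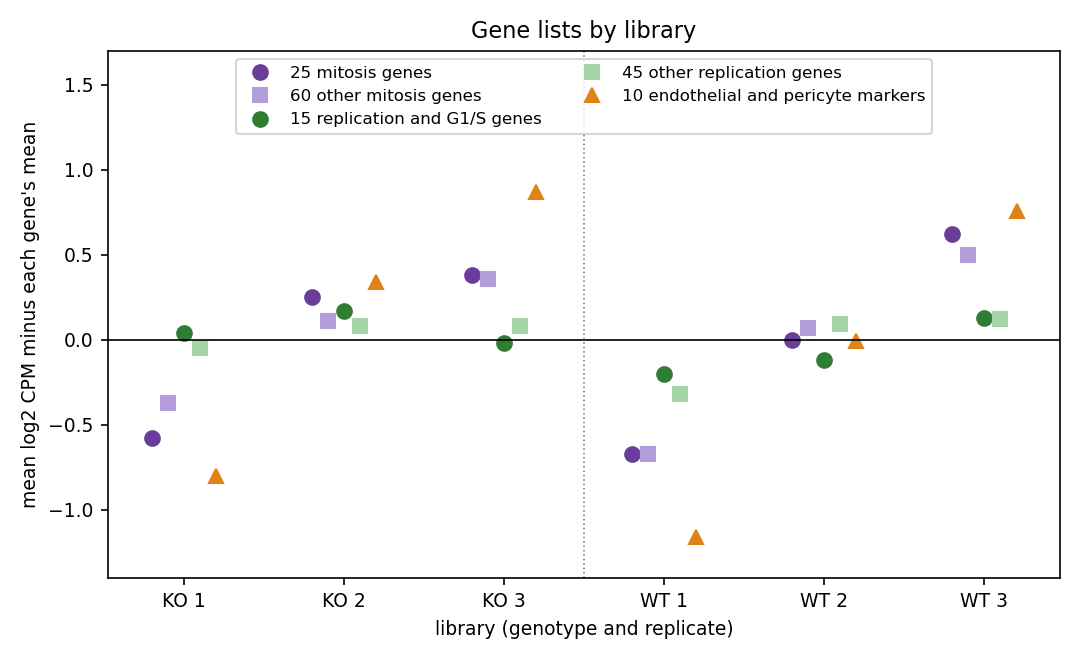
Mean over the genes of a list of log2 CPM minus each gene's mean over 6 libraries (y axis), for each library (x axis, KO left of WT). The 25 mitosis genes run from -0.58 to 0.38 in KO and from -0.67 to 0.62 in WT, the 60 other mitosis genes lie near them, the replication lists lie between -0.32 and 0.17, and the 10 endothelial and pericyte markers run from -0.80 to 0.87 in KO and from -1.16 to 0.76 in WT.

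Other genes of the same pathways, from lists chosen by function with earlier results of these data known, gave 1 gene at an unadjusted p under 0.05 with edgeR (2.34% of all genes higher in KO and 3.83% lower). Of 45 tested genes of replication, among them the polymerases, the clamp loader and the origin recognition complex, 0 passed an adjusted p of 0.05 with edgeR, DESeq2 (which gave none for 8 of them) or limma voom. At an unadjusted p under 0.05 stood 0 with edgeR, 0 with DESeq2 and 4 with limma voom. Of all genes 6.16%, 7.03% and 18.9% stood there with these tools, shares that also apply to the lists below. Their median log2 fold change was -0.01. Of 60 other mitosis genes 0 passed with edgeR, 0 with limma voom and 1, lower in KO, with DESeq2. DESeq2 gave no adjusted p for 24 of the 60 and called 0.538% of all genes. At an unadjusted p under 0.05 stood 1 with edgeR, 1 with DESeq2 and 2 with limma voom, and the median log2 fold change was 0.07. The gene of the DESeq2 call and of the edgeR count was Anln, at 27.1, 57.7 and 73.0 CPM in KO and 141, 136 and 87.2 CPM in WT, and its log2 fold change was -1.21 ± 0.35 (edgeR adjusted p = 0.628, DESeq2 adjusted p = 0.0309, limma voom adjusted p = 0.164). Over the other alternatives and with each library left out, its adjusted p ran from 0.139 to 1. Anillin builds the contractile ring of dividing cells and is also a protein of mouse myelin. The 10 markers of mature oligodendrocytes summed to 1840 to 2160 CPM in KO and 2930 to 4360 CPM in WT, and their part in the lower Anln values was not tested. Of 30 tested G1 cyclins, kinases, inhibitors and E2F and Rb family genes, 0 passed with edgeR, DESeq2 (no adjusted p for 5) or limma voom, and 0, 0 and 4 had an unadjusted p under 0.05 with these tools. Their median log2 fold change was -0.01.

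The 60 other mitosis genes had the library order of the 25. WT replicate 1 was their lowest WT library in 40 of 60 (66.7%), KO replicate 1 the lowest KO library in 38 of 60 (63.3%), and WT replicate 3 the highest WT library in 41 of 60 (68.3%). Their mean deviation was -0.37, 0.11 and 0.36 in KO and -0.67, 0.07 and 0.50 in WT. WT replicate 1 was the lowest WT library also for 29 of the 45 other replication genes (64.4%). The mean deviation of the 30 G1 genes ran from -0.03 to 0.02 in KO and from -0.20 to 0.13 in WT, an average over genes that went in both directions. Single genes of that list varied widely: Cdkn1a, which encodes the Cdk inhibitor p21 and was singled out after its values were seen, was at 80.7, 61.5 and 9.77 CPM in KO and at 32.8, 218 and 14.5 CPM in WT. Its highest library was 22.3-fold above its lowest, and replicate 3 was the lowest library in both genotypes. The highest library was more than 2-fold above the lowest for 9 of the 30 G1 genes and for 48 of the 60 other mitosis genes, again without the share of all genes tested.

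Set per length of exon, the replication and G1/S genes had a higher median level than the mitosis genes. On the scale of CPM per kb of exon, Pcna was at 43.4 ± 2.96 in KO and 43.1 ± 3.83 in WT (SD, n = 3 each), the highest of the 40. The MCM subunits, which sit in the helicase in equal number, lay between 2.87 for Mcm2 and 10.5 for Mcm7 in KO, and between 2.37 and 8.81 for the same genes in WT. The median over both genotypes was 4.87 for the 15 replication and G1/S genes, with a range of 0.246 to 43.3, and 1.6 for the 25 mitosis genes, with a range of 0.503 to 4.67. Cdc20 was the highest mitosis gene, at 5.34 in KO and 3.99 in WT, and Mki67 stood at 1.90 in KO and 2.20 in WT. Licensing factors were not alike in level: Cdc6 was at 0.394 in KO and 0.559 in WT, below each of the 6 MCM subunits. Union lengths of exons count exons that a culture may not use, so such levels are approximate.

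**Figure D5:**
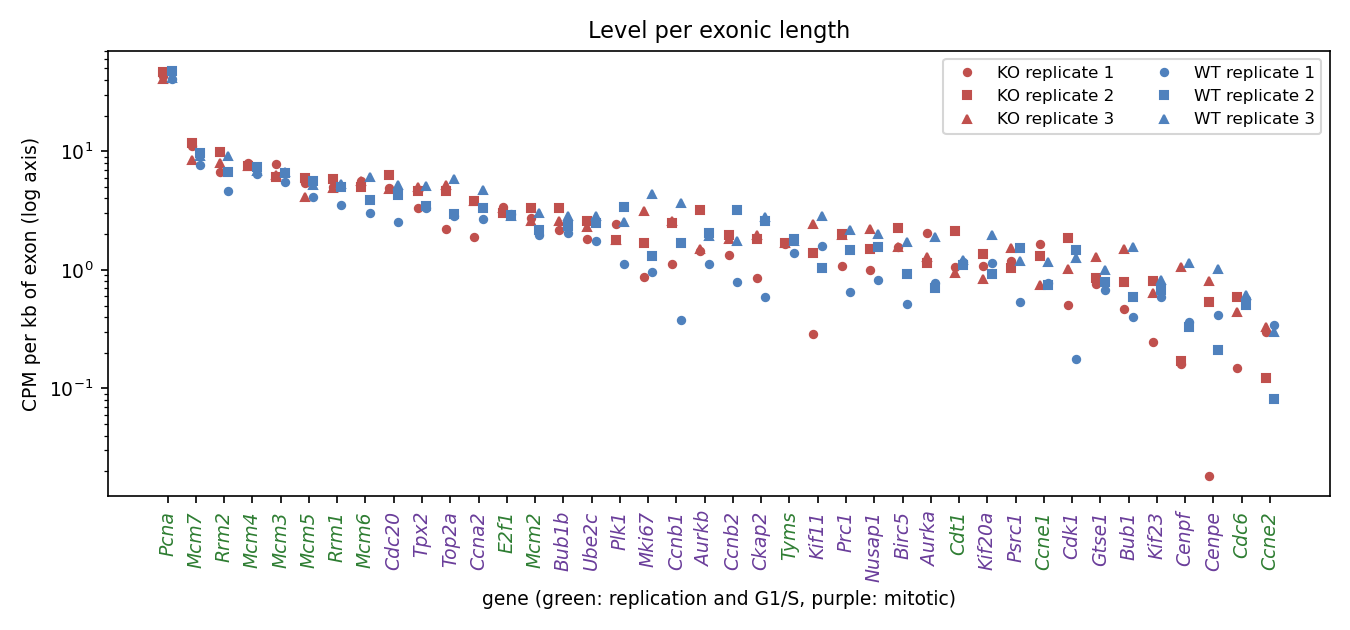
Level of each of the 40 genes in CPM per kb of exon (y axis, log scale) in each library (points, KO left of WT), ordered by mean level, with names of replication and G1/S genes in green and of mitosis genes in purple. Pcna stands at about 43 in both genotypes, and the points of 1 gene lie close together for the MCM genes and far apart for Cenpe, Cenpf and Kif11.

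Overlap with other genes may limit the counts of some of these genes. Exons of 9 of the 40 overlap another gene on the opposite strand in GENCODE M21 (Ccne2, Mcm7, Ccna2, Plk1, Cdc20, Ube2c, Kif20a, Nusap1 and Prc1), and those of Mcm7 and Top2a overlap a small RNA gene on their own strand. Whether counting used strand is not stated by the labels, so the values of these 10 genes are uncertain by reads of their neighbours.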

How the data were processed

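Poly-A RNA of cultured astrocytes was sequenced from paired ends in 3 KO and 3 WT libraries, per the labels' protocols. The authors deposited estimated counts per gene symbol, not normalized. The submitters' processing notes list TopHat2, featureCounts, GRCm38 and mm9 and give no role for any. Values were rounded to whole numbers, since 0.711% to 0.847% of them in a library were not whole within 0.01. Replicates of a genotype differed beyond sampling noise (chi-square over degrees of freedom 22.3 to 89.1), and each was counted once.

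KO was compared with WT by edgeR 4.0.16 (R 4.3.3): filterByExpr, which left 14131 genes, TMM, robust quasi-likelihood F test and Benjamini-Hochberg adjustment over all genes at 0.05. SE and 95% intervals are of log2 fold changes, KO over WT. Log2 CPM used a prior count of 2. Coordinates, exonic length and GC content (longest transcript) are from GENCODE M21 (GRCm38), matched for 98.5% of symbols, and are not the authors' coordinates. The test was tried on simulated data. Exact binomial intervals were computed for promoter shares.

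The genes and lists were chosen with earlier results of these data known. Values in every library are given for Mki67, Top2a, Cdk1, Ccnb1, Pcna and Mcm2, for any gene at an unadjusted p under 0.05, and per role for the genes of highest mean CPM and smallest p. Alternatives were RLE, total counts, no filter, at least 1 CPM in 3 libraries, DESeq2 1.42.0 and limma voom 3.58.1 with quality weights. Others were a replicate block and leaving out each library. A further one took the side of the GC trend, the sign of each library's correlation with GC content, as a batch term. The last removed the trend with GC content and length by splines with 4 degrees of freedom.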

Additional observations from a re-analysis of the deposited data

How the results depend on the processing

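No alternative gave a called gene among the 40 (DESeq2 gave an adjusted p for all but 9). Over all genes tested, 0 were higher and 0 lower in KO in the reported fit. DESeq2 gave 14 higher and 62 lower, limma voom 1 higher and 3 lower, and edgeR without a filter 2 higher and 4 lower. A batch term for GC side gave 14 higher and 74 lower, removal of the trend 2 higher and 13 lower, and leaving out each library 0 to 4 higher and 0 to 27 lower. Of the 40, 2 were higher and 1 lower at an unadjusted p under 0.05 with limma voom (Mcm7, Birc5 and Cenpf), and 0 to 2 higher and 0 to 1 lower when a library was left out (Mcm7 and Cenpf without KO replicate 3, where 18% of all genes stood there, and Mcm6 and Birc5 without WT replicate 3, where 4.73% did). The genes higher in KO without overlap were 1 with RLE, 0 with total counts and 0 to 7 when a library was left out, and those lower 0 to 3. The share of all genes without overlap is not given for these fits, and fewer libraries separate more easily. These counts therefore show no trait of the 40. The labels do not say whether the replicate numbers pair KO with WT libraries, and the reported fit did not take them as pairs. Same-numbered KO and WT libraries deviated together with correlations of 0.09, 0.15 and 0.28 over genes. For differently numbered libraries the correlations ran from -0.21 to 0.09, so a pairing remains possible. With the replicate block, 7 genes were higher and 37 lower, and 1 of the 40, Cenpf, was lower at an unadjusted p under 0.05 (edgeR adjusted p = 0.477).

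Adgrb1 passed also with edgeR without a filter (adjusted p = 0.0111), with the block (0.0143), the GC batch term (0.00016), the trend removed (0.00707) and without KO replicate 3 (0.0169). It did not pass with edgeR under RLE (adjusted p = 0.0739), total counts (0.0624) or at least 1 CPM in 3 libraries (0.0727). Nor did it pass with any other library left out (edgeR adjusted p from 0.113 to 0.544).

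Signs of log2 fold changes near 0 turned. With total counts Top2a was at -0.03 and Pcna at -0.06, and under the GC batch term Mki67 was at 0.11 and Pcna at -0.05. Leaving out each library, Mki67 ran from -0.78 to 0.76, Top2a from -0.18 to 0.47, Pcna from -0.04 to 0.08, Ccna2 from -0.36 to 0.07, Ccnb1 from -0.38 to 0.99, Cdk1 from -0.35 to 0.63, Bub1b from -0.01 to 0.29, Kif20a from -0.53 to 0.08 and Cenpf from -1.90 to 0.42. The cause was not tested. The share of mitosis promoters with a CHR, alone or with a CCAAT box, was 52.4% in the shorter window, which leaves out the bases after the start. In that window the share of replication and G1/S promoters with an E2F motif was 46.2%. The spread of the mitosis genes' mean over libraries was 1.29 and between 1.20 and 1.37 with RLE, total counts or the trend removed, alternatives chosen after seeing the data. Depth limits the lowest genes, with 3 counts of Cenpe in KO replicate 1.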
